A study of Allium sativum with 42 samples.

Results

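Gene levels in 10-day buds of garlic (Allium sativum, cultivar Ershuizao) were compared with those in garlic sprouts labelled 212 days, with 3 RNA-seq libraries of each. A gene entered the comparison when it reached 1 FPKM (mapped fragments scaled to transcript length and to the depth of the library) in at least 3 of these 6 libraries, which 29643 of 58219 listed genes did. Of the others, 17215 were at 0 in all 6 libraries and 11361 were above 0 but under the filter. The 1175 genes that reached 1 FPKM in exactly 2 of the 6 libraries had a median mean level of 0.846 FPKM, and the 2438 genes that did so in exactly 3 had a median of 1.53 FPKM. The whole series holds 42 libraries in 14 groups of 3, all of 1 cultivar grown on 1 farm: buds, leaves, pseudostems, garlic sprouts, roots, flowers, and bulbs at 8 ages from 192 to 227 days. Planting was in autumn; buds were collected as shoots at budding, and sprouts in the following spring. No treatment or genotype separates the groups. Between bud and sprout, tissue, age and season change together and cannot be told apart, and the growth protocol dates the spring harvest to the day on which 217-day bulbs were taken. The labels do not define the organ called garlic sprout, and they name neither pooling nor separate plants, so a p-value here reflects the spread among these libraries alone, part of which may be technical.

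A garlic clove is a dormant storage organ whose bud resumes growth after planting and draws on the reserves of the clove before its own leaves feed it. Leaf blades and the pseudostem, the column of rolled leaf bases, are later the green and supporting parts of the plant, and the new bulb fills in spring as the leaves age. The gene IDs in the table come without names or functions, so gene groups are described here by where else in the plant their transcripts were found. For the same reason the tissue labels could not be checked against marker genes.

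Recovered reads per library ranged from 11.5 M to 30.2 M over the 6 bud and sprout libraries. They were 30.2 M, 11.5 M and 17.2 M in bud replicates 1, 4 and 7, and 21.6 M, 22.3 M and 17.8 M in sprout replicates 1, 2 and 3. Across the tested genes the 3 bud libraries correlated at 0.96 to 0.976 with each other on the log2 scale, and the 3 sprout libraries at 0.951 to 0.972. Sprout replicate 1 stood furthest from its group, at 0.951 and 0.957. Between the tissues the correlation lay between 0.752 and 0.792. The median standard deviation of a gene over 3 libraries was 0.19 in bud and 0.23 in sprout on the log2(FPKM + 1) scale.

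Buds and sprouts differed in a large part of the genes they transcribe. With limma, a linear model that shares information on the spread between genes, 4812 genes were higher in bud (16.2% of those tested). Another 3185 were higher in sprout (10.7%), together 27.0% of the tested genes. Genes were called at a minimum difference of 1 on the log2(FPKM + 1) scale with an adjusted p under 0.05. A further 6413 genes passed the adjusted p with a smaller difference. For 13250 genes (44.7%) the 95% interval of the difference lay wholly between -1 and 1. In bulk tissue, fewer cells of a type and less RNA per cell cannot be told apart.

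**Figure D1:**
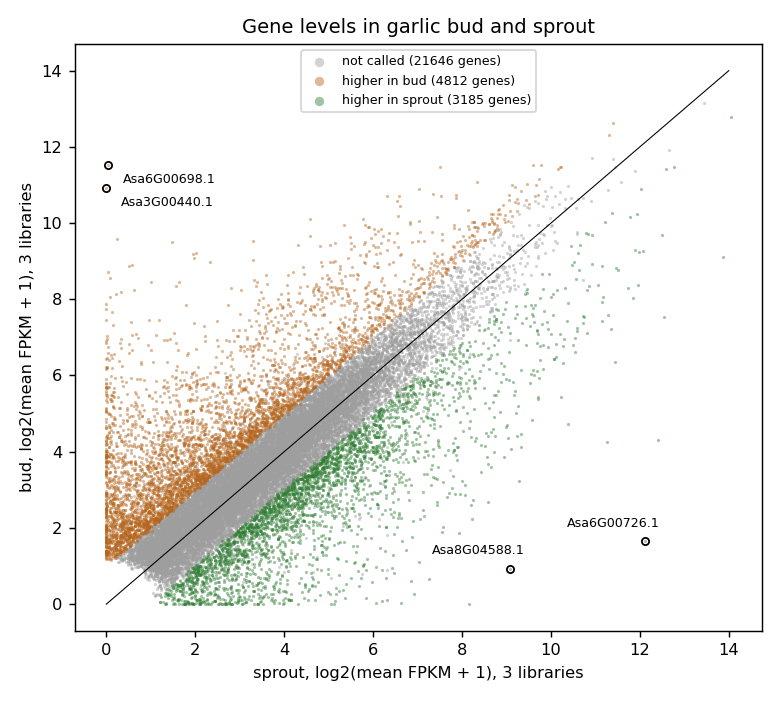
Mean level of each of 29643 genes in sprout (x axis) and bud (y axis), as log2(mean FPKM + 1) over 3 libraries each, coloured by call. The 4812 genes called higher in bud lie above the line of equal level and the 3185 called higher in sprout below it, and the 4 circled genes are those described one by one.

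Large differences were more often on the side of bud. At least 2 on the log2 scale separated 1725 genes higher in bud and 1013 higher in sprout, and at least 5 separated 131 and 37. These larger cut-offs were not run under other scalings. On the deposited FPKM scale 60.2% of all calls were higher in bud, and the median difference over all tested genes was 0.15 in favour of bud. With median-of-ratios scaling that median was -0.01, and 3948 genes were higher in bud against 3894 in sprout (50.3% in bud). Quantile normalization gave 3907 and 3933 (49.8% in bud). Both scalings set the libraries to a common centre, so a median near 0 follows from the method. They cannot tell whether more genes are higher in bud.

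Some genes could pass the filter through one tissue only and so had to differ. There were 1377 genes at 1 FPKM or more in all 3 bud libraries and in no sprout library, of which 1123 were called. The reverse held for 578 genes, of which 440 were called. Most calls concerned genes used in both tissues: among the 24187 genes at 1 FPKM or more in all 6 libraries, 3057 were higher in bud and 2381 higher in sprout. The libraries of the 2 tissues did not overlap for 10885 genes higher in bud (36.7% of those tested) and 6805 higher in sprout (23.0%). Among the called genes, 4778 of 4812 and 3147 of 3185 showed no overlap, which a call on the same libraries makes likely.

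Abundant transcripts were called more often than scarce ones. Among the 12822 genes under 10 FPKM in the tissue where they were higher, 13.4% were called higher in bud and 6.9% in sprout. From 100 to 1000 FPKM these shares were 28.5% and 18.4% of 2502 genes. Of the 184 genes at 1000 FPKM or more, 39.1% were higher in bud and 38.0% in sprout. The FPKM + 1 scale understates the differences of the scarcest genes, and the part that counting precision plays in the gradient was not tested. The lists of the 100 most abundant genes had 31 members in common. Of the 100 leading bud genes, 61 were called higher in bud and 7 higher in sprout. Of the 100 leading sprout genes, 68 were called higher in sprout and 5 in bud. Each list was picked by the levels in its own tissue, which favours calls toward that tissue, so these counts are descriptions. Over all tested genes 16.2% were called higher in bud and 10.7% higher in sprout.

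**Figure D2:**
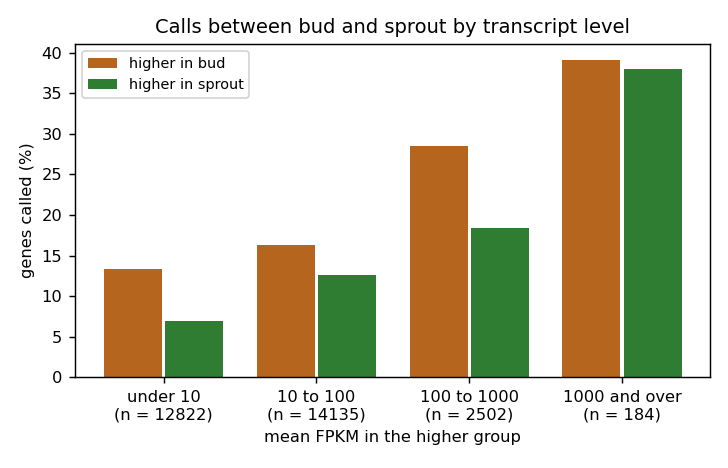
Share of tested genes called higher in bud or in sprout (y axis, percent), by the mean FPKM in the tissue where the gene was higher (x axis). Both shares rise with level, from 13.4% and 6.9% below 10 FPKM to 39.1% and 38.0% at 1000 FPKM or more. The level comes from the libraries that made the calls, which favours such a rise.

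The sprout transcript pool was the more concentrated of the 2. In each library the leading 100 genes by level made up 16.6%, 16.4% and 16.5% of summed FPKM in the bud libraries and 24.5%, 23.4% and 22.2% in the sprout libraries. The means were 16.5% ± 0.103 and 23.4% ± 1.17 (SD, n = 3), and the groups did not overlap. An exact 2-sided permutation test gave p = 0.10, the smallest that 3 against 3 allows. More genes reached the filter level in bud: 29216, 28599 and 29118 genes stood at 1 FPKM or more in the bud libraries, against 27495, 28005 and 27624 in the sprout libraries. The means were 28978 ± 332 and 27708 ± 265 genes (exact permutation p = 0.10). The difference of 1270 genes was 1308 after all libraries were thinned to 11.5 M reads, and 628 under median-of-ratios scaling.

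The gene with the largest excess in bud was Asa6G00698.1, whose FPKM values imply a gene model of 537 bases. It stood at 3710.4, 2711 and 2437 FPKM in bud replicates 1, 4 and 7, on 66457, 18227 and 24644 reads. The 3 sprout libraries had 1 read between them, in replicate 1. All bud libraries were thus high and all sprout libraries at or next to 0 (log2 difference 11.47, SE 0.17). The gene passed the filter through its bud libraries alone and so had to differ, and its difference is given as a description. The ratio of the mean FPKM values was 112000, with a 95% Poisson interval from 20100 to 4420000 that covers counting error of the single read only. Asa3G00440.1, with an implied 321 bases, was second. Its bud values were 2188, 1808 and 1797 FPKM, and it had 0 reads in every sprout library. This gene too passed the filter through bud alone, and its log2 difference of 10.91 ± 0.12 (SE) is a description; against a floor of 3 reads per sprout library the bud mean was at least 4620-fold higher.

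Outside bud and sprout these 2 genes were most abundant in the young bulb. Asa6G00698.1 averaged 1718 ± 241 FPKM in 192-day bulbs and 45.6 ± 28.0 FPKM in 227-day bulbs (SD, n = 3), and fell by 5.53 on the log2 scale over the bulb series (limma, linear term for age, adjusted p = 1.19e-08). Asa3G00440.1 averaged 1917 ± 297 FPKM at 192 days, close to its bud mean of 1931 ± 222 FPKM, and 26.6 ± 12.3 FPKM at 227 days. It fell by 7.41 over the series (limma, adjusted p = 1.57e-08). The group means did not fall at every step. Between these ages Asa6G00698.1 averaged 643 ± 213 FPKM at 202 days and 990.1 ± 376 FPKM at 207 days, and Asa3G00440.1 178 ± 53.0 and 257 ± 182 FPKM, so the 202-day and 207-day groups were not apart by more than their spread. In 217-day bulbs replicate 1 had 1044 FPKM of Asa6G00698.1 while replicates 2 and 3 had 133 and 98.8 FPKM, and Asa3G00440.1 stood at 140 FPKM in that library against 8.64 and 5.86 FPKM. Flowers held both genes, at 215 ± 117 and 68.8 ± 42.1 FPKM. Leaf, pseudostem and root were at or near 0 for both, with the highest mean, 2.47 ± 1.17 FPKM, for Asa6G00698.1 in root.

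The gene with the largest excess in sprout was Asa6G00726.1, with an implied 792 bases. The sprout libraries had 7797, 2669.9 and 2803 FPKM, and the bud libraries 72, 11 and 38 reads with a mean of 2.13 FPKM. Sprout replicate 1 was the highest by far, and every sprout library was far above every bud library. Sprout was higher by a log2 difference of -10.32, bud minus sprout (SE 0.43, adjusted p = 5.55e-06 by limma), and the sprout mean was 2080 times the bud mean. Asa8G04588.1, with an implied 279 bases, followed at 479, 669 and 476 FPKM in sprout. In bud it had 13, 0 and 7 reads, a mean of 0.910 FPKM. No bud library came near a sprout library (log2 difference -8.24 ± 0.35, limma, adjusted p = 5.61e-06). The ratio of means was 595, with a 95% Poisson interval from 385 to 974 for counting error of the 20 bud reads. Both genes were picked as the largest called differences in these libraries. Their adjusted p-values were thus bound to be under 0.05 and are descriptions.

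Both sprout genes were also abundant in the leaf blade and pseudostem. Asa6G00726.1 averaged 5590 ± 337 FPKM in leaf, 530 ± 370 FPKM in pseudostem and 113 ± 64.8 FPKM in root, and its means were 5.0 FPKM in flower and at most 2.88 FPKM in the 8 bulb groups. Leaf exceeded root by 5.76 on the log2 scale (limma, adjusted p = 7.62e-06). Asa8G04588.1 averaged 347 ± 151 FPKM in leaf, 238 ± 117 FPKM in pseudostem and 0.720 ± 0.386 FPKM in root, and had 0 reads in all 3 flower libraries. Its difference between leaf and root was 7.56 (limma, adjusted p = 2.35e-06). In bulbs Asa6G00726.1 rose by 1.66 over the series (limma, adjusted p = 9.45e-05), while the trend of Asa8G04588.1, 0.91, was not called (adjusted p = 0.127).

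**Figure D3:**
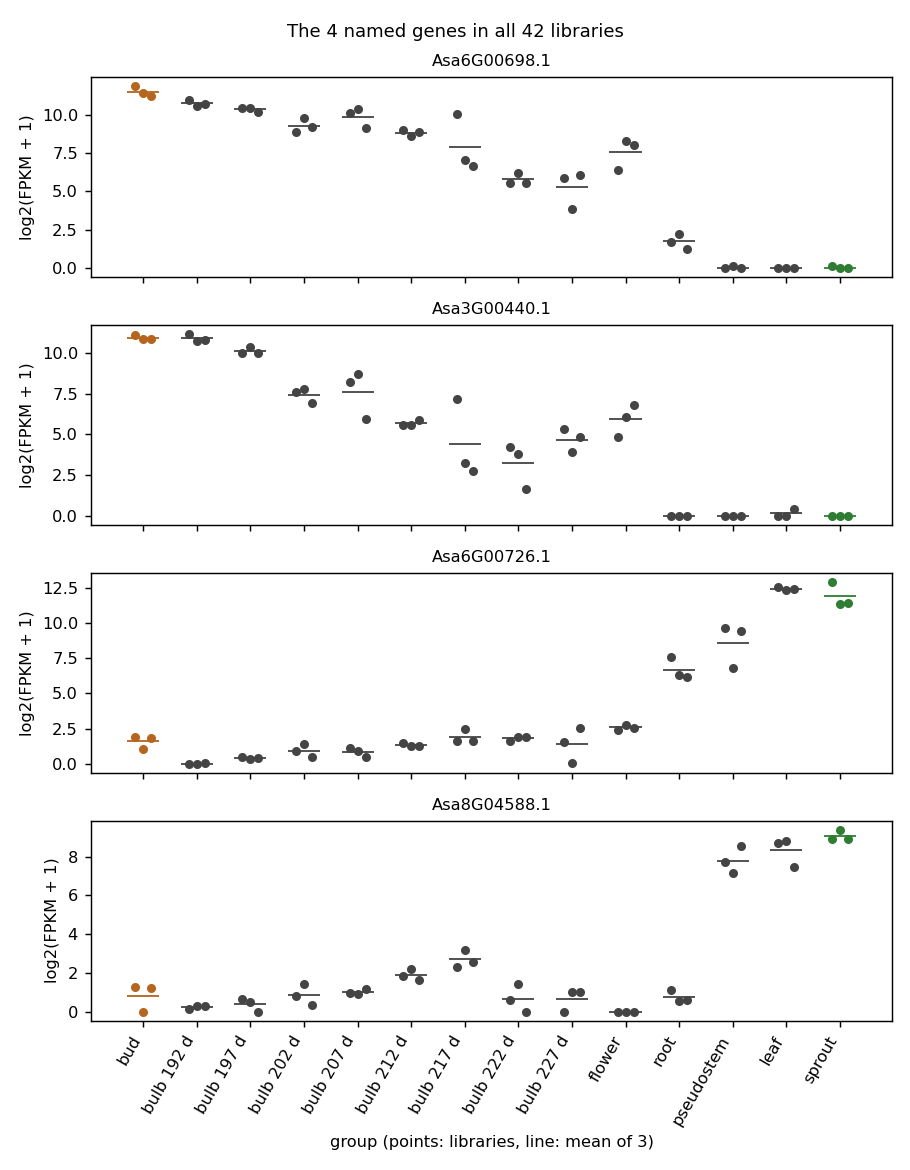
Levels of the 4 genes with the largest differences, as log2(FPKM + 1) in each of 42 libraries (points) with the mean of 3 (lines), by group on the x axis. The upper 2 genes are high in bud and in 192-day bulbs and at or near 0 in sprout, leaf and pseudostem, and the lower 2 are high in sprout, leaf and pseudostem.

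Transcripts read in 1 of the tissues and not at all in the other were mostly bud transcripts. A bud mean of 10 FPKM or more went with 0 reads in all 3 sprout libraries for 63 genes, with a median bud level of 18.3 FPKM and a highest of 1931 FPKM. Of these, 60 were called. The reverse held for 8 genes, with a median sprout level of 25.9 FPKM, and 5 of them were called. Both sets were chosen from the libraries that the calls use, which favours a call. Of all tested genes 27.0% were called. The number of 8 genes rested on single libraries, since it was 19 without bud replicate 1, the deepest library, and 13 without sprout replicate 1. Of the 63 bud genes, 53 reached a mean of 1 FPKM in 192-day bulbs and 23 did so in 227-day bulbs. The number was 26 in 222-day bulbs and also 26 in flower, 13 in root, 9 in pseudostem and 2 in leaf. Of the 8 sprout genes, 7 reached 1 FPKM in leaf, 7 in pseudostem, 5 in root and 1 in 192-day bulbs. The share of all tested genes at such a mean was not computed, so these counts are descriptions. Of the 58219 listed genes, 26266 to 26510 stood at 1 FPKM or more in single 192-day bulb libraries and 25738 to 26474 in leaf libraries. Together the 63 bud genes made up 0.366% ± 0.0456 of summed FPKM in bud and 0.368% ± 0.0339 in 192-day bulbs, against 0.0164% ± 0.00251 in 227-day bulbs and 0.00102% ± 0.000267 in leaf.

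The same contrast held for the whole lists in libraries that had no part in choosing them. The 4812 genes called higher in bud held 37.3%, 36.8% and 35.2% of summed FPKM in the bud libraries and 9.40%, 9.47% and 10.4% in the sprout libraries, which is what chose them. In 192-day bulbs they held 43.7%, 41.1% and 39.4%, and in 197-day bulbs 37.8%, 38.8% and 40%, so all 6 of these libraries gave the list a larger share than any bud library did. The share was 25.2% ± 1.61 (SD, n = 3) in 202-day and 28.2% ± 3.30 in 207-day bulbs. Bulbs of 212 days had 23.4% ± 0.983, those of 217 days 19.5% ± 3.46, and the 222-day and 227-day groups 13.4% ± 2.08 and 13.0% ± 0.225. The share was 13.3% ± 1.66 in flower, 11.8% ± 0.417 in root, 9.73% ± 0.653 in pseudostem and lowest in leaf, at 6.93% ± 0.366. A share of summed FPKM also moves with the most abundant genes. The leading 100 genes of a library held 18.5% to 18.9% in 192-day bulbs, 39.8% to 54.7% in 222-day and 227-day bulbs and 37.4% to 42.6% in flower, and their part in the shares of the list was not tested.

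The 3185 genes called higher in sprout held 38.3%, 33.3% and 31.5% of summed FPKM in the sprout libraries and 6.80%, 6.95% and 7.67% in bud. In leaf they held 42.6%, 37.7% and 36.2%, a range that overlaps that of the sprout libraries. The share was 27.2% ± 4.23 in pseudostem, 17.8% ± 0.512 in root and 12.3% ± 0.374 in flower. It was lowest in 192-day bulbs, at 4.37% ± 0.325, below every bud library, and stood at 9.71% ± 0.879 at 202 days and 11.3% ± 0.854 at 227 days.

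**Figure D4:**
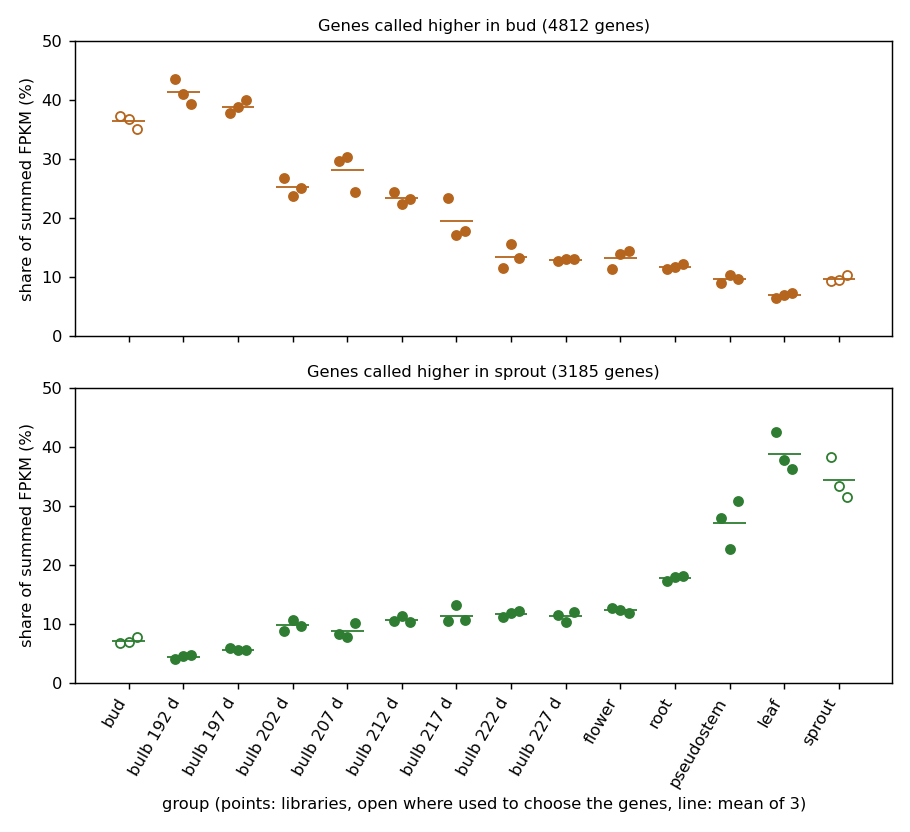
Share of summed FPKM (y axis, percent) held by the genes called higher in bud (upper panel) and in sprout (lower panel) in each of 42 libraries, by group. Open points are the libraries that chose the genes; the bud list is as prominent in 192-day bulbs, at 41.4% on average, and the sprout list in leaf, at 38.8%.

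Gene by gene, the level in each other group was set against the midpoint between the bud and the sprout mean on the log2 scale. Of the genes higher in bud, 74.8% ± 2.11 lay on the bud side of their midpoint in 192-day bulbs (SD over 3 libraries). The 197-day group had 62.1% ± 1.71, the 202-day group 47.2% ± 1.76 and the 207-day group 54.8% ± 10.5, so the share did not decline at every step. It was 38.2% ± 1.3 in 212-day, 31.3% ± 10.2 in 217-day, 19.9% ± 3.12 in 222-day and 17.4% ± 0.367 in 227-day bulbs. The lowest bulb values depended on scaling: median-of-ratios and quantile scaling gave 31.5% and 32.3% for 222-day bulbs and 28.8% and 30.1% for 227-day bulbs. In flower 21.3% ± 1.97 lay on the bud side (33.4% with median-of-ratios scaling), in root 18.3% ± 1.47, in pseudostem 14.8% ± 3.13 and in leaf 10.7% ± 1.5. With group means of leaf, pseudostem, root, flower and bulbs at 192 and 227 days, 2451 of the 4812 genes (50.9%) were on the bud side in 192-day bulbs and in none of the other 5 groups. Another 581 (12.1%) were on the bud side in none of the 6 groups, and 64 (1.3%) in all of them. Replicates varied most in 207-day bulbs, from 43.2% to 63.4%, and in 217-day bulbs, from 25% to 43.0%, where replicate 1 was the highest in both.

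Of the genes higher in sprout, 68.8% ± 2.22 lay on the sprout side of their midpoint in leaf and 65.4% ± 12.8 in pseudostem, where the 3 libraries ranged from 52.3% to 77.7%. Root followed with 34.2% ± 2.87 and flower with 29.3% ± 1.02. In bulbs the share was 6.21% ± 1.54 in the 192-day group and 27.0% ± 6.27 in the 227-day group. On the deposited FPKM scale it was highest in the 217-day group, with 33.4% ± 7.10. Median-of-ratios and quantile scaling gave 9.6% and 12.8% for 192-day bulbs, and quantile scaling 41.2% for 227-day bulbs. Under these 2 scalings the 217-day group, at 38.5% and 41.2%, was not the highest, and the 222-day group had 39.8% and 41.9%. By group means, 1762 of the 3185 genes (55.3%) were on the sprout side in both leaf and pseudostem. In leaf alone of the 6 groups there were 354 (11.1%), and 384 (12.1%) were on the sprout side in none. On the sprout side in 227-day but not in 192-day bulbs were 667 genes (20.9%), against 55 (1.7%) with the reverse pattern.

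The bulb series, which has no library in common with the comparison, moved the 2 lists in opposite directions. Of 30430 genes tested against bulb age from 192 to 227 days, 5718 fell (18.8%) and 2921 rose (9.60%), with a median change of -0.18 on the log2 scale over the whole span. Among the 4609 genes of the bud list that were measured there, 2790 fell (60.5%) and 178 rose (3.9%), with a median of -1.31. Among the 2709 measured genes of the sprout list, 894 rose (33.0%) and 153 fell (5.6%), with a median of 0.61. The interquartile range was -2.19 to -0.59 for the bud list and -0.05 to 1.38 for the sprout list. All of these are limma calls by the same 2 thresholds, adjusted over all genes of that fit.

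The leaf and root libraries gave a second contrast without bud or sprout. Of 27902 genes tested, 5157 were higher in leaf (18.5%) and 4630 higher in root (16.6%). Of the 2958 measured genes of the sprout list, 1555 were higher in leaf (52.6%) and 378 higher in root (12.8%), with a median of 1.28 against 0.13 over all genes tested. Of the 3182 measured genes of the bud list, 257 were higher in leaf (8.1%) and 851 higher in root (26.7%), with a median of -0.25. With 2 leaf libraries in place of 3 the bud-list share higher in leaf was 5.2%, 4.9% and 5.3% (without replicates 1, 2 and 3), and the sprout-list share was 41.5%, 41.3% and 42.7%. The bud-list share higher in root was 18.8%, 17.4% and 23.7% without root replicates 1, 2 and 3. These fits still asked for 1 FPKM in 3 libraries, so genes at that level only in the tissue with 2 libraries could not enter. Without leaf replicates 1, 2 and 3 the measured sprout-list genes were 2463, 2457 and 2467, against 2958. Shares over all genes were not computed for these smaller fits. Of the 3130 bud-list genes measured in both fits, 424 fell in bulbs and were higher in root, and 1278 fell in bulbs with no call between leaf and root. The leaf libraries had 5.9 M, 10.4 M and 15.6 M reads and the root libraries 12.4 M to 14.4 M. Of the 2577 sprout-list genes measured in both fits, 329 rose in bulbs and were higher in leaf, and 159 rose in bulbs and were higher in root. Another 104 fell in bulbs and were higher in leaf. For both lists these joint counts are descriptions only, since no share over all genes measured in both fits was computed.

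**Figure D5:**
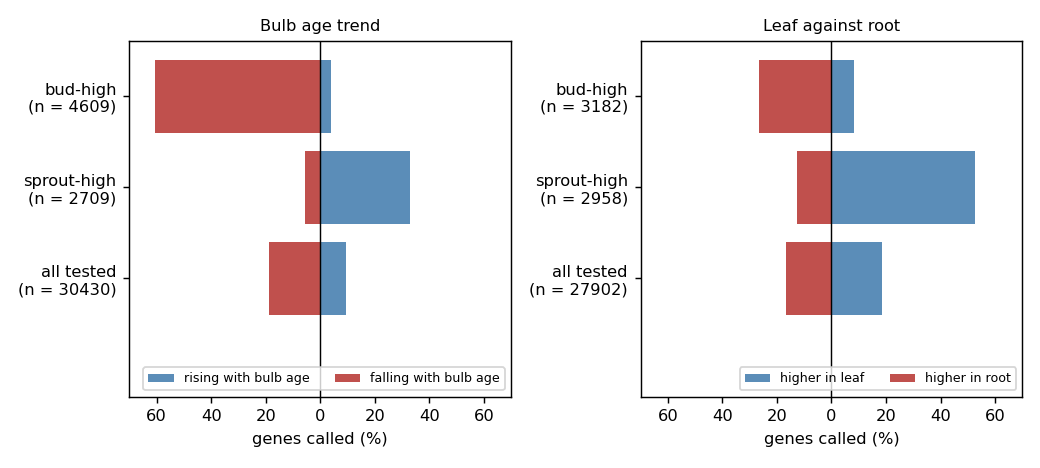
Percent of genes called in each direction (x axis) with bulb age (left) and between leaf and root (right), for the bud list, the sprout list and all genes tested. In bulbs 60.5% of the bud list fell and 33.0% of the sprout list rose, against 18.8% and 9.60% of all genes; 52.6% of the sprout list was higher in leaf than in root, against 18.5%.

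The gene models of the 2 lists were of similar size. The median implied length was 696 bases in the bud list, 738 bases in the sprout list and 759 bases among genes not called. The share of tested genes called in either direction ranged from 26.2% to 28.0% over the 9 leading digits that the gene IDs carry.

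The pairs bud and 192-day bulb, leaf and sprout, and pseudostem and sprout, each fitted on its own 6 libraries with the same filter and thresholds, were set beside this one. Bud and 192-day bulbs differed in 16.1% of 28618 genes, with 3935 higher in bud and 664 higher in the bulbs. Leaf and sprout differed in 29.4% of 28456 genes, with 3363 higher in leaf and 4990 higher in sprout. Pseudostem and sprout differed in 20.1% of 28859 genes, with 3027 higher in pseudostem and 2768 higher in sprout. The median difference was 0.22 for bud minus 192-day bulb, -0.24 for leaf minus sprout and -0.11 for pseudostem minus sprout, and these pairs were not run under other scalings. They share bud or sprout libraries with the comparison above, and differences between the shares were not tested.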

How the data were processed

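Total RNA of each sample was extracted with a plant RNA kit and made into cDNA libraries, per the labels' protocols. The submitters' processing notes name Bowtie2 and RSEM; their versions, the reference and the annotation are not stated there. The authors deposited FPKM values for 58219 gene IDs in 42 columns, each matched to 1 sample by its title, with 0 columns left over. The treatment of reads shared by near-identical genes is unknown, so members of gene families are uncertain.

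Whole reads, within 0.001, were recovered from the FPKM steps for 100% of 38950 genes with values above 0 in 10 or more libraries. The recovered reads gave depth, thinning and a voom fit, and the steps gave gene lengths, of which 94.5% were multiples of 3, as for coding lengths. Replicates of bud and of sprout differed by more than sampling noise (lowest chi-square per degree of freedom 10.8).

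Models used limma 3.58.1 (R 4.3.3) on the log2(FPKM + 1) scale, a variance trend and Benjamini-Hochberg adjustment over all genes of a fit, after checks on simulated data. Bud against sprout and leaf against root were each fitted on their own 6 libraries, and bulb age as a linear term on 24. Genes named one by one were the 2 largest called differences in each direction with no overlap of libraries and 10 FPKM or more on average in the group with the higher level. Genes with names or functions were not analysed here, so keyword lists and marker lists could not be applied. The comparison, lists and tests were chosen with earlier results of these data known. Single values were compared by exact permutation in Python 3.11.15 with SciPy 1.17.1. Poisson intervals and read floors cover counting error only.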

Additional observations from a re-analysis of the deposited data

How the results depend on the processing

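The 4 named genes kept their direction and call under every alternative in which they were tested; Asa6G00698.1 and Asa3G00440.1 had no value under a filter of at least 1 FPKM in 2 libraries of each group or without any 1 bud library, since they then fail the filter. No paired analysis was possible because buds carry replicate numbers 1, 4 and 7 and sprouts 1, 2 and 3, which share 1 number. Without a minimum difference 9019 genes were higher in bud and 5391 in sprout, and at a minimum of 2 on the log2 scale 1725 and 1013 were. Leaving out 1 library gave from 3579 to 4823 and from 2492 to 3120 genes; without a library, genes that reach 1 FPKM in the 3 libraries of that tissue alone (1377 in bud, 578 in sprout) can no longer pass the filter. The median difference over all genes was 0.07 with no filter and 0.09 to 0.21 when 1 library was left out. It was -0.01 under quantile normalization and under median-of-ratios scaling, which both set it near 0 by construction. With a mean of at least 1 FPKM, 221 genes were read in bud only and 92 in sprout only; without 1 library these numbers, 63 and 8 in the report, were 58 to 84 and 7 to 19. Quantile normalization gives all libraries 1 distribution, so by construction the difference in genes at 1 FPKM became -1 and that in the share of the 100 most abundant genes 6.7e-06. Falling sprout-list genes in bulbs made up 3.5% with median-of-ratios scaling. With lists called at 2 or more, 43.1% of the bud list was higher in root. Without 1 leaf or root library the bud-list shares were 4.9% to 9.1% in leaf and 17.4% to 27.2% in root. Here too, genes that reach 1 FPKM only in the tissue with a library left out could no longer pass the filter.

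Shares of genes past their midpoint moved by over 1.5 times in these cases. For the bud list, median-of-ratios scaling gave 31.5% at 222 days, 28.8% at 227 days and 33.4% in flower, quantile normalization 32.3% and 30.1% at 222 and 227 days, and the stricter list 5.97% in leaf. For the sprout list, median-of-ratios scaling gave 9.6% and 15.5% at 192 and 197 days, quantile normalization 12.8%, 18.6% and 41.2% at 192, 197 and 227 days, and the stricter list 2.9% and 5.4% at 192 and 197 days. The cause of these shifts was not tested. Depth limits the genes called absent from a tissue.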
